A study of Mus musculus with 36 samples.

Results

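The nuclear genes of respiratory complexes II to V were read in brown pre-adipocytes during differentiation into adipocytes. The members are the protein-coding genes whose GENCODE M21 symbol starts with Sdh (a to d, and the Sdhaf assembly factors), Uqcr, Cox4, Cox5, Cox6, Cox7, Cox8 or Atp5, leaving out Cox7a1 and Cox8b. They comprised 50 gene identifiers with 49 symbols, of 55536 genes in the files, on 19 chromosomes. Complex II had 8 members, of which 4 encode its subunits and 4 encode assembly factors. Complex III had 8 members, complex IV 16 and complex V 18. Cox7a2l, which takes part in joining complexes III and IV into supercomplexes, and Atp5s, a factor that couples the ATP synthase, were kept as members but are not counted among the structural genes. Of the 50 identifiers, 45 had enough counts to be tested, 39 of them structural.

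The respiratory chain moves electrons from metabolites to oxygen and builds a proton gradient across the inner mitochondrial membrane. Succinate dehydrogenase (complex II) feeds electrons from succinate into the ubiquinone pool, complex III passes them on to cytochrome c, cytochrome c oxidase (complex IV) reduces oxygen, and the ATP synthase (complex V) uses the gradient to make ATP. Complex II is made from nuclear genes alone, whereas complexes III to V combine nuclear subunits with a few encoded by mitochondrial DNA. Brown adipocytes are rich in mitochondria, and their uncoupling protein lets the gradient run down as heat.

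The study asked whether serine 22 of the nuclear receptor RXRα is needed for brown adipocyte formation. Brown pre-adipocytes in which Cas9 had disrupted *Rxra* (*Rxra*-/-) gave 2 lines, clone 48 and clone 66, each of them 1 clone, and a pBabe Hygro retrovirus then supplied *Rxra*WT or *Rxra*SA, the latter with alanine at residue 22, to both. Cells were held with insulin and T3, taken at confluence (day 0), induced for 2 days with dexamethasone, IBMX and indomethacin, and taken at day 2 and day 6, with 3 libraries for each clone, genotype and day, or 36 in all. Every group therefore shared the loss of the endogenous receptor and the virus, and no unedited line or empty virus entered these comparisons. The deposited design calls the 3 replicates technical and the study calls them independent, so p-values measure the spread between these libraries, which may be technical. Clone 48 was sequenced in pool 1 and clone 66 in pool 2, and clone and pool cannot be told apart.

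Libraries held between 11351078 and 24349263 counts (median 18338726). The library of *Rxra*SA clone 48 at day 0, replicate 1, stood apart from the rest, with the lowest total and 3.06% of its counts on Lars2. *Rxra* itself lay between 92.6 and 712 CPM (counts of the gene scaled to the TMM-adjusted size of the library) in all libraries, and since both genotypes carry the virus, its level does not tell them apart. The summed CPM of 5 adipocyte markers (Pparg, Fabp4, Adipoq, Plin1 and Cebpa) was 90.8–210, 2796–5231 and 5410–9444 on days 0, 2 and 6, with 5 of 5 rising to day 2, while that of 5 pre-adipocyte markers was 255–465, 33.7–104 and 42.0–168. Of 5 brown adipocyte markers 3 were tested (Cidea, Elovl3 and Ppargc1a), and all 3 rose to day 2 and were higher at day 6 than at day 0, with at most 27, 206 and 508 counts in a library. The defining marker Ucp1 had at most 5 counts and Dio2 at most 20. Markers of macrophages summed to 2.77–12.7 CPM over all libraries and those of endothelium to 0.278–2.43 CPM, and Ptprc and Adgre1 had at most 1 count.

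Nearly all of these genes were higher in differentiating cells than in confluent pre-adipocytes, with the largest step in the first 2 days. Between day 0 and day 2, 42 of 45 tested members rose and none fell, by a median of 0.99 on the log2 scale. Over all 16723 tested genes 35.8% rose and 37.5% fell in the same comparison, with a median of -0.02. Between day 0 and day 6, 40 of 45 rose and none fell (median 0.85), against 32.9% of all genes rising and 35.4% falling (median -0.03). A rise or fall means a Benjamini-Hochberg adjusted p under 0.05 in edgeR's quasi-likelihood test, fitted over both genotypes and both clones. For 24 of the 45 members all 12 libraries of day 2 lay above all 12 of day 0, which was so for 13.6% of all genes. At day 6 this held for 21 members against 12.2% of all genes.

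The members together took 0.843–1.15% of all counts at day 0, 1.44–2.20% at day 2 and 1.34–2.28% at day 6, so that neither later day overlapped with day 0. The RNA came from whole cultures, in which fewer cells of a type and less RNA per cell cannot be told apart. Without the library that stood apart the numbers of rising members stayed at 42 and 40. With libraries scaled by their size alone, 39 members rose and 3 fell (Sdhaf4, Cox7a2l and Atp5g2) from day 0 to day 2, and 38 rose and 3 fell (Sdhaf2, Atp5g2 and Atp5s) from day 0 to day 6. That scaling moved the median of all genes by about the same amount as that of the members: relative to all genes the members' median was 1.01 with TMM and 1.00 with library size for day 2, and 0.888 and 0.894 for day 6. Of all genes called between days 0 and 2, 48.85% were higher with TMM and 33.64% with library size, and between days 0 and 6 the shares were 48.19% and 34.88%.

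**Figure D1:**
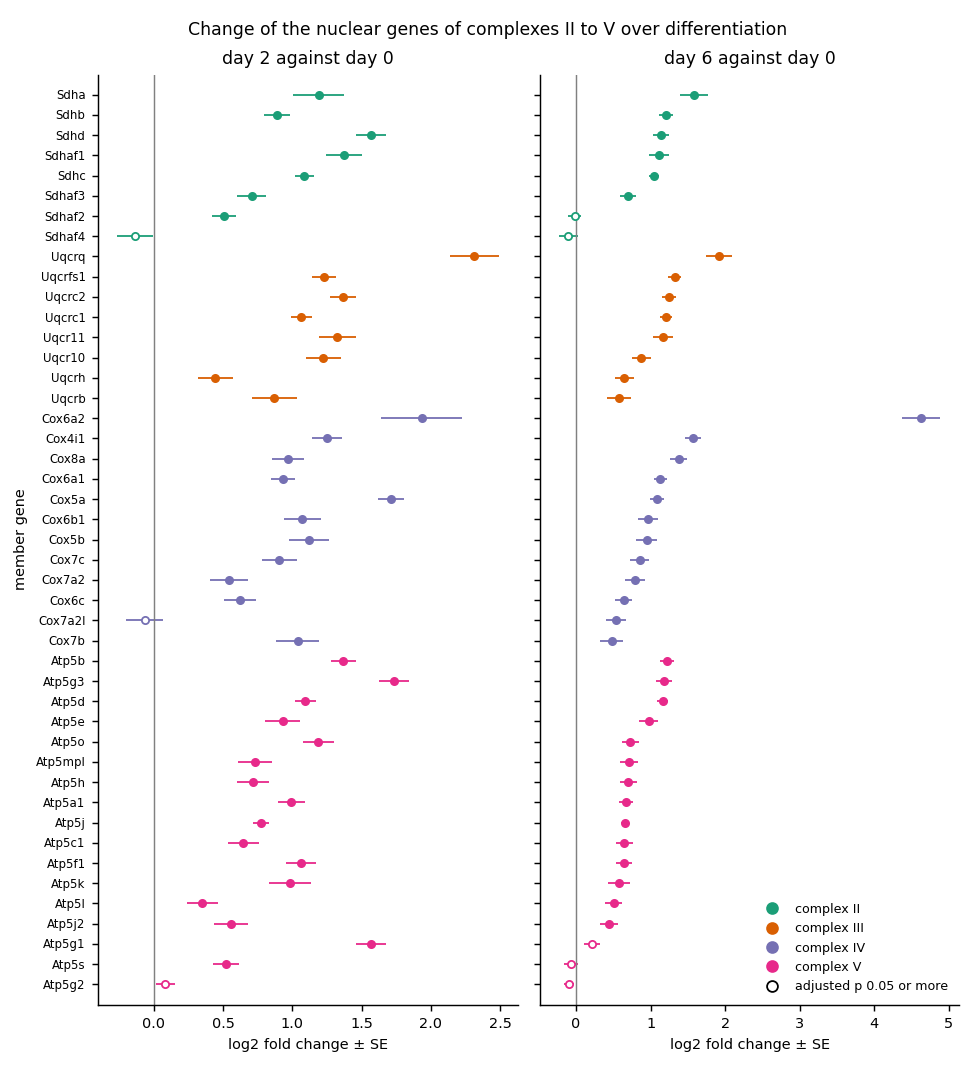
Log2 fold change with its SE for each of the 45 tested members (rows, coloured by complex) at day 2 against day 0 and at day 6 against day 0, with filled points for an adjusted p under 0.05. Points lie to the right of 0 apart from a few near it, and Cox6a2 stands far from the rest at day 6 with 4.63.

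After day 2 the members had no common direction. Between day 2 and day 6, 6 members rose, 14 fell and 25 did not pass the test, with a median of -0.10. Of all genes 31.9% rose and 30.1% fell. The share of members that fell was thus near that of all genes, and the share that rose was smaller. In complex V 8 members fell and none rose, in complex III 2 fell and none rose, and in complex IV 5 rose (Cox4i1, Cox6a1, Cox6a2, Cox7a2l and Cox8a) and 2 fell (Cox5a and Cox7b). Among the structural genes of complex II Sdhb rose and Sdhd fell. Only 1 member, Cox6a2, had all day 6 libraries above all day 2 libraries, as 9.56% of all genes did, and for Atp5g1 all day 6 libraries lay below. With the replicate number as a block 10 members rose and 17 fell, since Uqcrh, Cox7a2, Uqcrc1 and Sdha then rose and Sdhaf1, Uqcrb and Atp5j then fell.

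By course, 24 members rose to day 2 and did not pass the test after it, 13 rose and then fell, and 5 rose in both steps (Sdhb, Cox4i1, Cox6a1, Cox6a2 and Cox8a). Atp5g2 did not pass in the first step and fell in the second, Cox7a2l did not pass and then rose, and Sdhaf4 passed in neither. The structural members' median log2 fold change from day 0 to day 6 was 1.18 in complex II, 1.19 in complex III, 0.97 in complex IV and 0.66 in complex V. At day 2 the medians had been closer together, at 1.14, 1.23, 1.04 and 0.96. These differences between complexes were not tested.

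Summed per length (CPM per kilobase of exon, which allows levels of different genes to be added), complex IV held the highest median level of the 4, and it lay above complex V in 32 of 36 libraries. In clone 48 its structural members summed to 1707–2627 at day 0, 3101–5404 at day 2 and 4049–6249 at day 6. In clone 66 the sums were 1664–2421, 3224–4451 and 3414–5791. Complex V summed to 1416–1979, 3208–4711 and 2973–4056 in clone 48 and to 1563–2175, 3212–4023 and 2557–3785 in clone 66. Complex II was lowest, with 223–274, 559–768 and 590–700 in clone 48. For each complex the day 2 and day 6 sums lay wholly above those of day 0 in both clones, and the day 2 and day 6 sums overlapped with each other in every case.

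**Figure D2:**
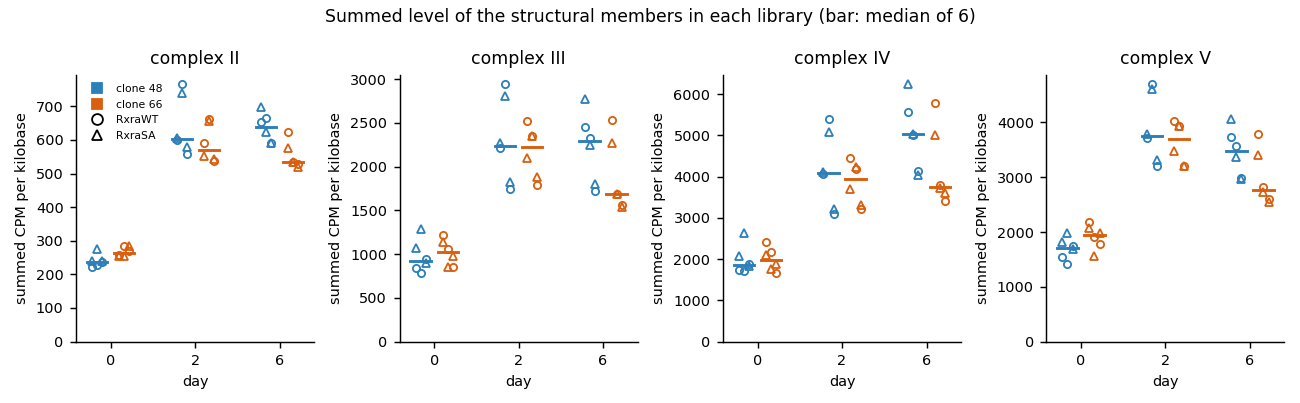
Summed level of the structural members of each complex, in CPM per kilobase of exon, for every library by day, clone and genotype, with a bar at the median of the 6 libraries of a clone and day. All day 0 libraries sit below those of days 2 and 6, and *Rxra*WT and *Rxra*SA libraries lie among each other.

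Complex II was represented by Sdha, the flavoprotein that oxidises succinate, Sdhb, which carries the iron-sulfur clusters, and Sdhc and Sdhd, which anchor both in the membrane. All 4 rose to day 2 and were higher at day 6 than at day 0. Sdha had 80.6–192 CPM (median 165) at day 0, 276–464 (326) at day 2 and 295–646 (476) at day 6 in clone 48. In clone 66 it had 96.1–289 (238), 283–535 (491) and 328–697 (629) CPM. No day 0 library reached the range of day 6, although the spread within a day was wide. In clone 66 the 2 libraries of replicate 1 were lower than the other 4 on every day, for example at 328 and 373 CPM at day 6 against 609–697. Sdha rose by 1.19 ± 0.19 (SE) to day 2 and by 1.58 ± 0.19 to day 6 on the log2 scale (adjusted p = 6.8e-07 and 3.5e-09), the latter the largest day 6 change in complex II, and its 0.39 ± 0.18 from day 2 to day 6 did not pass (adjusted p = 0.064, and 0.0024 with the replicate block), while it passed in 4 of 9 other settings and in 6 of 36 fits with a library left out.

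Sdhc changed least of the 4 by day 6, with 121–152 CPM (median 137) at day 0, 257–365 (282) at day 2 and 293–316 (304) at day 6 in clone 48. In clone 66 its values were 160–195 (171), 318–405 (333) and 298–378 (313). The increase to day 6 of 1.05 ± 0.07 (adjusted p = 1.1e-15) separated all libraries of the 2 days. Sdhd rose more in the first step, by 1.57, and then fell by 0.43, while Sdhb rose by 0.89 and by a further 0.32.

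The 4 assembly factors of complex II did not move as 1 group. Sdhaf1, which helps the iron-sulfur clusters of Sdhb to be inserted, had 2.52–6.17 CPM over both clones at day 0, 8.39–15.5 at day 2 and 6.83–12.1 at day 6, with no overlap of either later day with day 0. It rose by 1.37 ± 0.13 to day 2 and 1.11 ± 0.13 to day 6 (adjusted p = 2.1e-11 and 3.3e-09). Of its exons 69.6% overlap another gene, so its count is uncertain. Sdhaf3, which acts on the same step, went from 7.29–12.8 CPM to 10.9–22.7 and 12.8–21.2, a change of 0.71 ± 0.10 and 0.69 ± 0.10 (adjusted p = 2.6e-07 and 4.0e-07) with overlapping libraries. Sdhaf2, which attaches the flavin to Sdha, was higher only at day 2, with 65.6–107, 96.0–144 and 59.2–107 CPM on the 3 days. It rose by 0.51 ± 0.09 and fell by 0.52 ± 0.09 (adjusted p = 3.6e-06 and 3.0e-06), which left -0.02 ± 0.09 at day 6 (adjusted p = 0.87). Sdhaf4, which joins Sdha and Sdhb, had 21.9–43.4, 16.3–40.6 and 17.9–42.4 CPM, with log2 differences from day 0 of -0.13 ± 0.13 and -0.10 ± 0.13 (adjusted p = 0.35 and 0.50).

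All 8 members of complex III rose to day 2, and all 8 were above day 0 at day 6. They include the core proteins Uqcrc1 and Uqcrc2, the Rieske iron-sulfur protein Uqcrfs1, the hinge protein Uqcrh and small subunits. Uqcrq, one of the small subunits around the quinone site, changed most between days 0 and 2 of all 45 tested members. It had 14.8–77.0 CPM (median 48.9) at day 0, 218–374 (245) at day 2 and 159–248 (203) at day 6 in clone 48, and 39.2–97.1 (62.7), 233–344 (278) and 188–266 (221) CPM in clone 66. All libraries of the later days lay above all of day 0 in both clones. The log2 fold change was 2.31 ± 0.18 to day 2 and 1.92 ± 0.17 to day 6 (adjusted p = 6.5e-14 and 6.1e-12), followed by a difference of -0.39 ± 0.17 after day 2 (adjusted p = 0.043), whose call was lost in 22 of 36 fits with a library left out and in 3 of 9 other settings. The lowest value, 14.8 CPM, belongs to the library that stood apart, and without it the 2 increases were 2.21 and 1.82.

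Uqcrb changed least in complex III by day 6. It had 43.1–77.0 CPM (median 56.4), 65.1–141 (124) and 67.8–136 (102) in clone 48 at days 0, 2 and 6, and 53.5–97.6 (64.7), 89.4–185 (127) and 65.7–133 (83.5) in clone 66. Libraries of different days overlapped, and the increase to day 6 was 0.57 ± 0.16 (adjusted p = 0.0022). The 2 core proteins and the Rieske protein had risen by 1.06, 1.36 and 1.23 at day 2 and stood 1.21, 1.25 and 1.32 above day 0 at day 6, with no overlap between the libraries of day 0 and either later day. Uqcr10, Uqcr11 and Uqcrh rose by 1.22, 1.32 and 0.44 to day 2 and stood 0.88, 1.16 and 0.65 above day 0 at day 6, and Uqcr10 fell by 0.35 after day 2 (adjusted p = 0.016).

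In complex IV 11 of the 15 structural members were tested, and all 11 rose to day 2 and were higher at day 6 than at day 0. For several subunits the genome holds a common gene and a second one used in particular tissues. Cox6a2 is the heart and muscle form of subunit VIa, also known from brown fat, and lies at chr7:128205435-128206387 on the minus strand (GRCm38). Its day 0 level was near the detection floor, with 0.205–0.543 CPM (median 0.305) in clone 48 and 0.0940–0.384 (0.204) in clone 66, where 3 counts correspond to 0.115–0.243 CPM depending on the library. At day 2 it had 1.21–2.69 CPM (1.99) in clone 48 and 0.379–0.654 (0.436) in clone 66, and at day 6 it had 5.41–8.88 (7.21) and 4.81–10.8 (5.73). The day 6 libraries of both clones lay above every library of the earlier days. The increase from day 0 to day 6 of 4.63 ± 0.26 on the log2 scale (adjusted p = 1.8e-17), or 24.7-fold, was the largest of all members, and rests on 2 to 11 counts per library at day 0.

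The common form Cox6a1 had 179–251 CPM (median 201), 338–568 (394) and 451–536 (502) in clone 48 and 206–254 (230), 339–458 (398) and 390–565 (435) in clone 66. It rose by 0.93 ± 0.09 and a further 0.20 ± 0.09 (adjusted p = 8.9e-12 and 0.044), and all its later libraries lay above day 0. The second call was lost in 18 of 36 fits with a library left out and in 2 of 9 other settings. Per length, Cox6a2 remained a small part of the VIa pool, with 0.0449–0.289% of the sum of both forms at day 0, 0.0882–0.584% at day 2 and 1.11–1.94% at day 6. Itgad covers 10.3% of the Cox6a2 exons on the opposite strand, and the counting did not use the strand.

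Muscle markers were read beside Cox6a2 because of its use in muscle. Myod1 had no count in any library, and Myog and Ckm had at most 4 and 3 counts. Acta1 had 1.15–4.17, 0.195–1.04 and 5.67–11.5 CPM on the 3 days, and so also rose after day 2, while Actn3 went from 2.81–7.41 to 0.0545–0.808 and 0.0622–0.483 CPM. The summed level of the 5 muscle markers was 4.40–10.03 CPM at day 0, 0.455–1.36 at day 2 and 5.84–12.1 at day 6. Cox7a1 and Cox8b, the heart and muscle forms of subunits VIIa and VIII, which are not members, had 4.06–26.7 and 25.7–49.7 CPM at day 6, and at most 0.567 and 0.415 CPM at the earlier days.

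**Figure D3:**
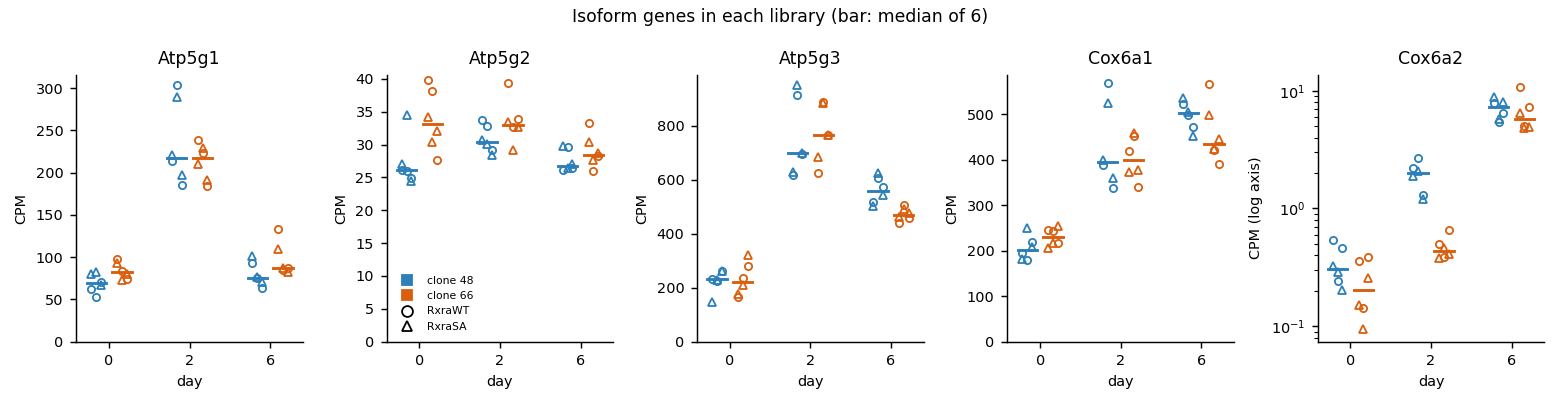
CPM per library (Cox6a2 alone on a log axis), by day, clone and genotype, with a bar at the median of 6 libraries, for the 3 genes of ATP synthase subunit c (Atp5g1, Atp5g2 and Atp5g3) and the 2 genes of cytochrome c oxidase subunit VIa (Cox6a1 and Cox6a2). Atp5g1 is high at day 2 alone, Atp5g2 stays between 24.5 and 39.9 CPM, and Cox6a2 at day 2 lies higher in clone 48 than in clone 66.

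The other isoform pairs of complex IV were carried by the common gene. Cox4i1 had 589–879 CPM (median 610), 1222–2046 (1556) and 1663–2538 (2117) in clone 48 and 583–803 (707), 1409–1905 (1679) and 1587–2708 (1752) in clone 66. It rose by 1.25 ± 0.11 and then by 0.32 ± 0.11 (adjusted p = 1.2e-12 and 0.0083). Its lung form Cox4i2 had at most 8 counts in a library and 93 in all 36. Cox8a had 255–457 CPM at day 0, 487–941 at day 2 and 531–1197 at day 6 over both clones, and rose by 0.97 ± 0.12 and 0.41 ± 0.11 (adjusted p = 3.6e-09 and 0.0023). Its testis form Cox8c had no count in any library, which allows up to 0.115–0.243 CPM.

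Cox6b1 went from 102–194 CPM to 195–384 and 199–378, an increase of 1.07 ± 0.13 to day 2 and 0.97 ± 0.13 to day 6 (adjusted p = 7.1e-09 and 6.3e-08). Cox6b2, known from testis, had 19 counts in all. Cox7b was the structural member of complex IV with the smallest increase at day 6: it had 107–195 CPM (median 138), 190–365 (357) and 161–323 (239) in clone 48 and 92.3–166 (115), 178–339 (245) and 112–208 (124) in clone 66. It rose by 1.04 ± 0.15 and fell by 0.56 ± 0.15 (adjusted p = 2.5e-07 and 0.0017), with 0.48 ± 0.15 left at day 6 (adjusted p = 0.0062). Cox7b2, another testis form, had 4 counts in all. Of the structural members without a second form, Cox5a rose most to day 2, from 29.1–44.3 to 91.4–163 CPM over both clones (1.71 ± 0.09, adjusted p = 8.1e-18), and then fell to 52.8–95.2 CPM (-0.63 ± 0.09, adjusted p = 2.5e-07), still above every day 0 library. Cox5b, Cox6c and Cox7c rose by 1.12, 0.62 and 0.91 to day 2 and stood 0.95, 0.64 and 0.85 above day 0 at day 6.

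Cox7a2 and Cox7a2l differ in their course. Cox7a2, the common form of subunit VIIa, had 126–279, 188–357 and 213–520 CPM over both clones, with increases of 0.54 ± 0.14 to day 2 and 0.79 ± 0.14 to day 6 (adjusted p = 0.00067 and 5.0e-06). Cox7a2l had 122–319, 152–246 and 200–423 CPM. Its log2 difference was -0.07 ± 0.13 to day 2 (adjusted p = 0.66) and 0.60 ± 0.13 from day 2 to day 6 (adjusted p = 0.00018). Libraries of all days overlapped for both genes, and the difference between the 2 genes was not tested.

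Complex V is the ATP synthase, whose catalytic head is built from Atp5a1 (subunit alpha) and Atp5b (subunit beta) and whose membrane rotor is a ring of subunit c. Of its 16 structural members tested, 15 rose to day 2 and 14 were higher at day 6 than at day 0. Subunit c is made from 3 genes, Atp5g1, Atp5g2 and Atp5g3, whose products end as the same mature protein after their import sequences are removed. Atp5g1 and Atp5g3 both rose and then fell, by different amounts, while Atp5g2 changed little. The differences between the 3 genes were not tested. Atp5g1, at chr11:96068852-96075670 on the minus strand, had 52.1–82.5 CPM (median 68.9) at day 0, 186–303 (217) at day 2 and 63.1–101 (75.4) at day 6 in clone 48. In clone 66 it had 72.3–97.4 (81.7), 184–238 (217) and 81.9–133 (86.9) CPM. Every day 2 library lay above every library of the other days, which overlapped with each other.

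Atp5g1 rose by 1.56 ± 0.11 to day 2 and fell by 1.35 ± 0.11 after it (adjusted p = 4.2e-15 and 3.8e-13), the largest fall of all members. It then stood 0.21 ± 0.11 above day 0 (adjusted p = 0.070, and 0.043 with the replicate block). Atp5g3, at chr2:73908447-73911326 on the minus strand, had 146–263 CPM (median 231), 618–951 (698) and 504–627 (558) in clone 48 and 164–320 (222), 626–888 (765) and 441–508 (469) in clone 66. It rose by 1.74 ± 0.11 and fell by 0.56 ± 0.10 (adjusted p = 2.7e-16 and 2.1e-05), and stayed 1.18 ± 0.11 above day 0 (adjusted p = 5.7e-12) with no overlap between days 0 and 6.

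Atp5g2, at chr15:102662864-102672352 on the minus strand, was the structural member of complex V with the smallest change at both later days. It had 24.5–34.5 CPM (median 26.1), 28.4–33.7 (30.3) and 26.1–29.8 (26.8) in clone 48 and 27.6–39.9 (33.2), 29.2–39.4 (33.0) and 26.01–33.4 (28.5) in clone 66. The log2 difference from day 0 was 0.08 ± 0.07 at day 2 (adjusted p = 0.27) and -0.10 ± 0.07 at day 6 (adjusted p = 0.20), and with library size alone the day 2 value was -0.18. Per length, Atp5g3 supplied 63.2–81.0%, 79.9–86.4% and 81.1–90.2% of the sum of the 3 genes on days 0, 2 and 6. Atp5g1 supplied 8.199–16.7%, 9.17–13.5% and 4.41–10.9%, and Atp5g2 9.84–20.1%, 3.499–6.55% and 4.96–7.99%. The part of Atp5g2 at day 0 did not overlap with its part at either later day. These parts depend on the annotated exon lengths, which are 4912 bases for Atp5g1, 1675 for Atp5g2 and 2181 for Atp5g3. In CPM without length, Atp5g1 lay above Atp5g2 in every library, so the order of these 2 genes per length is uncertain.

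The stretches before the RefSeq start sites of these 3 genes are shown because the genes code for the same mature protein and moved differently, with those of Atp5e (subunit epsilon) and Atp5l (subunit g) as further complex V genes that hold several motifs. They are the bases before the RefSeq start that are clear of annotated exons, 5′ to 3′ on the gene's strand in build GRCm38.p6, and capitals mark motif letters.
Atp5g1: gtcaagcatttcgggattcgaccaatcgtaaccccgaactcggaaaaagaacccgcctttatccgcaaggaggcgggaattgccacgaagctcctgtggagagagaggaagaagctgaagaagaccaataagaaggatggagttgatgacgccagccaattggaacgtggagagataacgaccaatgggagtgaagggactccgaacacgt
Atp5g2: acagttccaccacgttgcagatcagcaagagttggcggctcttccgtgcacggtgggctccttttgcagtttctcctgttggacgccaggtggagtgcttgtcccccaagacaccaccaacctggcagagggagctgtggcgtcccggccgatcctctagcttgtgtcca
Atp5g3: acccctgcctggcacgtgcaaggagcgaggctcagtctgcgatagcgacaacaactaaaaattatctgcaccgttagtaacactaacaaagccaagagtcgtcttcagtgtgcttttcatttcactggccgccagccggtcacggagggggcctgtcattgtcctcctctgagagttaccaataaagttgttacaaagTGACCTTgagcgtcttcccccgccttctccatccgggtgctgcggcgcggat
Atp5e: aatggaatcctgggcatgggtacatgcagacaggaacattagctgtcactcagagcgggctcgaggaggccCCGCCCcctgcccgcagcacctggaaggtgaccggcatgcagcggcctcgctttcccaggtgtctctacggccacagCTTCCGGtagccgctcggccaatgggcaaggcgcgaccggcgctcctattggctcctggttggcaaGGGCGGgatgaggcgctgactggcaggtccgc
Atp5l: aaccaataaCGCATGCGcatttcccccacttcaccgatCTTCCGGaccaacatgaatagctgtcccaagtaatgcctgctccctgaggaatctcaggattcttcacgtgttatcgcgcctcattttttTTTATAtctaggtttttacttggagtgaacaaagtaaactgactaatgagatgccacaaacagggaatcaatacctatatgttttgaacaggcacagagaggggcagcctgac
They lie at chr11:96075671-96075881, chr15:102671128-102671297, chr2:73911327-73911576, chr2:174464106-174464351 and chr9:44920752-44920992, all on the minus strand. The Atp5g2 stretch lies inside the gene as GENCODE M21 annotates it, whose 5′ end is upstream of the RefSeq start. In Atp5g3 the capitals are the reverse complement of the ERRA letters, 52 to 46 bases before the start. In Atp5e they are those of GABPA, 102 to 96 bases before the start, and of SP1 at 179 to 174 and 36 to 31 bases. In Atp5l they are those of NRF1 (241 to 234 bases), GABPA (212 to 206) and TATA (122 to 117). Atp5g1 had none of the letters searched in its whole window, and Atp5g2 had those of NRF1 at 41 to 34 bases before the start and of SP1 across the start, both in annotated exon and so not printed. The ERRA letters also occurred outside the printed stretch in Atp5e, 24 to 30 bases after the start, and in Atp5l, 13 to 7 bases before it. Atp5l had the GABPA letters again 24 to 30 bases after the start, also not printed.

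Windows of 300 bases (250 before and 50 after the RefSeq start) were given for 36 of the 49 symbols. Letters were searched on both strands, with none of the matches described above overlapping another. The NRF1 letters CGCATGCG, for the respiratory factor of that name, occurred in the windows of 7 members (19.4%) against 2.06% of 26994 genes. The GABPA letters CCGGAAG, also called NRF-2, occurred in 15 members (41.7%) against 9.92%, and the ERRA letters AAGGTCA, for estrogen-related receptors, in 5 (13.9%) against 5.39%. YY1 (AAGATGGC) was found in 2 (5.56%) against 3.18%, SP1 (GGGCGG) in 16 (44.4%) against 38.2%, and the TATA box (letters TATAAA) in 3 (8.33%) against 15.7%. A match describes these letters and is not a site of binding. No window was given for Atp5a1, Atp5f1, Atp5mpl, Atp5s, Cox4i1, Cox4i2, Cox6a2, Cox6c, Cox8c, Sdhc, Uqcrb, Uqcrc2 and Uqcrq.

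The catalytic subunits Atp5a1 and Atp5b rose by 0.99 ± 0.10 and 1.37 ± 0.09 to day 2 (adjusted p = 3.2e-11 and 1.9e-15) and stood 0.67 ± 0.10 and 1.22 ± 0.09 above day 0 at day 6 (adjusted p = 1.6e-07 and 4.4e-14). Atp5b, at chr10:128083273-128090391 on the plus strand, had the largest change of complex V at day 6. It had 1201–1549 CPM (median 1413), 3668–5266 (3776) and 3552–4345 (3845) in clone 48 and 1072–1436 (1226), 2492–3065 (2668) and 2167–2944 (2279) in clone 66. Of the stalk and head subunits, Atp5d (delta) rose by 1.09 and Atp5c1 (gamma) by 0.65 at day 2, and both kept their increase at day 6, at 1.16 and 0.65. Atp5f1 (subunit b) and Atp5o, which connects head and stator, rose by 1.06 and 1.19 and fell by 0.42 and 0.46 after day 2. Other annotated genes overlap 47.9% of the exons of Atp5o, which leaves its count uncertain, and a second identifier of that name, wholly overlapped, had no count. The remaining structural members tested (Atp5e, Atp5h, Atp5j, Atp5j2, Atp5k, Atp5l and Atp5mpl) were 0.35 to 0.98 above day 0 at day 2 and 0.44 to 0.97 at day 6. Atp5s rose by 0.52 ± 0.09 and fell by 0.59 ± 0.09 (adjusted p = 7.2e-06 and 1.5e-06).

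At day 6 the highest members per length were Cox8a with a median of 1321 CPM per kilobase, Cox4i1 with 1270, Atp5b with 767, Cox6a1 with 690 and Uqcr11 with 677. The lowest tested structural members were Atp5l with 5.21, Cox6a2 with 9.52, Atp5g2 with 16.7 and Atp5g1 with 17.5. The highest median of a complex was 2.28 times the lowest in complex II, 6.57 times in complex III, 139 times in complex IV and 147 times in complex V. These medians divide by the length of all annotated exons of a gene, so that an annotation with long rare exons lowers the level, and neighbours in the order, such as Cox8a (859–1934) and Cox4i1 (1024–1747), overlapped over their 12 libraries. The annotation also holds 8 processed pseudogenes with member names. Those of Atp5l (Atp5l-ps1, Atp5l-ps2 and Atp5l2-ps) had at most 7 counts in a library. The effect of such copies on the levels of the members was not tested.

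*Rxra*SA and *Rxra*WT did not differ in any member by the test. At day 0, day 2 and day 6 none of the 45 members passed with edgeR, and none of all 16723 genes did (0%), nor did any with DESeq2. The adjusted p was 1 for every member, and none had an unadjusted p under 0.05. Of all genes 139, 162 and 125 had one with edgeR and 116, 130 and 101 with DESeq2. These fits did not use the pairing of same-numbered libraries. With the replicate block no gene passed in edgeR, and 263, 206 and 172 of all genes had such a p. All these numbers are below the share of 0.05 that arises where no gene differs. The tests were thus cautious, and a lack of calls does not show equal levels. The log2 differences (*Rxra*SA minus *Rxra*WT) ranged from -0.72 to 0.27 at day 0, from -0.26 to 0.09 at day 2 and from -0.23 to 0.10 at day 6. They were above 0 in 39, 8 and 15 of the 45 members on the 3 days, with medians of 0.10, -0.03 and -0.01. Over all genes the medians were -0.004, -0.01 and -0.01. The members come from the same libraries, and a shift of the members as a set was not tested. In the edgeR fit without the block, the interval of 2 SE around the difference stayed within 0.5 of 0 for 33, 41 and 43 of the 45 members on the 3 days.

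The smallest p at day 0 belonged to Sdhaf1, with 0.27 ± 0.19 (unadjusted p = 0.15 from edgeR's fit over all genes). At day 2 it belonged to Atp5g2, which had 29.1–39.4 CPM (median 33.2) in *Rxra*WT and 28.4–33.4 (30.3) in *Rxra*SA, a difference of -0.13 ± 0.10 (unadjusted p = 0.19). The *Rxra*SA library was lower in all 6 pairs of the same clone and replicate, as it also was for Cox8a (-0.10 ± 0.16), and no member was higher in all 6 pairs on any day. At day 6 the smallest p was that of Cox6a2, with 5.04–10.8 CPM in *Rxra*WT and 4.81–8.88 in *Rxra*SA and a difference of -0.23 ± 0.27 (unadjusted p = 0.39). The genotypes overlapped for all 3 genes. In the test of genotype by time none of the 45 members and none of all genes (0%) passed for any pair of days with edgeR or DESeq2. Of all genes 144, 153 and 128 had an unadjusted p under 0.05 for days 0 to 2, 2 to 6 and 0 to 6 with edgeR, and 125, 133 and 109 with DESeq2, and no member was among them. The difference in the change over time was above 0 in 5, 31 and 6 of the 45 members for these pairs of days. The interval of 2 SE stayed within 0.5 of 0 for only 11, 25 and 13 of the 45 members. For the others a difference of 0.5 in the change over time was not excluded.

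**Figure D4:**
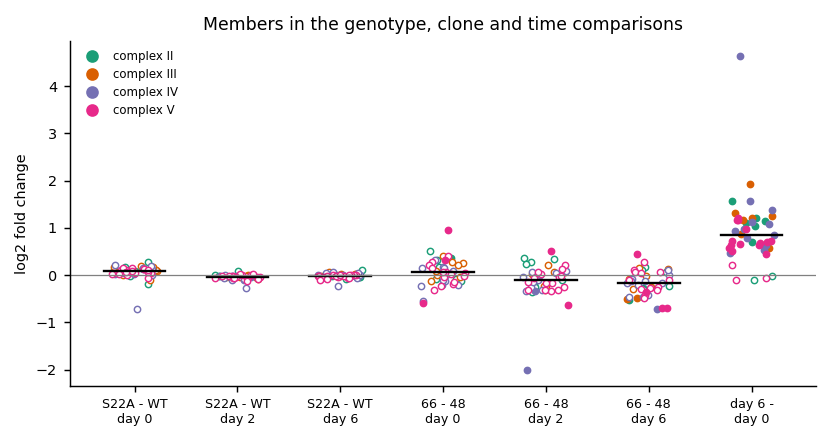
Log2 fold changes of the 45 tested members, 1 point each, for *Rxra*SA against *Rxra*WT and for clone 66 against clone 48 at days 0, 2 and 6, beside day 6 against day 0, with a bar at the median and filled points for an adjusted p under 0.05. The genotype differences lie near 0, mostly above it at day 0 and below it at days 2 and 6, with no filled point. The clone differences are wider with between 4 and 9 filled points a day.

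By the test the clones differed in a few members. Called or not, clone 66 lay above clone 48 in 27, 17 and 14 of the 45 members on days 0, 2 and 6. The median differences were 0.06, -0.09 and -0.165 (all genes 0.02, -0.01 and 0.0003), and a shift of the members as a set was not tested. By calls, clone 66 was higher in Sdhc, Atp5a1 and Atp5g2 at day 0 and lower in Atp5s, against 12.6% and 11.1% of all genes. At day 2 it was higher in Atp5a1 and lower in 4 members (Uqcrfs1, Cox5a, Cox6a2 and Atp5b), against 14.5% and 15.5% of all genes. At day 6 it was higher in Atp5a1 and lower in 8 (Sdhd, Uqcr11, Uqcrfs1, Cox5a, Cox7b, Atp5b, Atp5mpl and Atp5s), against 13.4% and 12.8%. The count at day 6 moved with single libraries: it was 15 and 14 without the *Rxra*WT and *Rxra*SA libraries of clone 66, replicate 1, 4 without *Rxra*SA clone 48 replicate 1, and 5 without either library of clone 66, replicate 3. At day 2 the count of lower members was 2 without any one of *Rxra*WT or *Rxra*SA clone 48 replicate 2, *Rxra*SA clone 66 replicate 1, and *Rxra*WT or *Rxra*SA clone 66 replicate 3, and without either of the first pair Sdhc was called higher as well.

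The catalytic pair of the ATP synthase was split between the clones. Atp5a1 had 617–881 CPM (median 745) at day 0, 1506–1963 (1745) at day 2 and 1257–1748 (1400) at day 6 in clone 48, and 1083–1763 (1422), 2204–2840 (2469) and 1630–2482 (1831) in clone 66. The clones did not overlap at days 0 and 2 and overlapped at day 6. Clone 66 was higher by 0.95 ± 0.12, 0.51 ± 0.12 and 0.44 ± 0.12 on the log2 scale (adjusted p = 6.1e-07, 0.0015 and 0.0065). Atp5b went the other way, with -0.19 ± 0.11 at day 0 (adjusted p = 0.26), -0.62 ± 0.11 at day 2 and -0.69 ± 0.11 at day 6 (adjusted p = 9.4e-05 and 2.9e-05), and its libraries did not overlap between clones at days 2 and 6. Atp5a1 and Atp5b were called at day 2 with each library left out in turn.

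The ratio of Atp5a1 to Atp5b per length, taken within each library, kept the clones apart on all 3 days. It was 0.666–0.872 (median 0.699) at day 0, 0.504–0.636 (0.558) at day 2 and 0.471–0.544 (0.486) at day 6 in clone 48. In clone 66 it was 1.37–1.93 (1.47), 1.15–1.42 (1.19) and 1.01–1.14 (1.09). In both clones the median ratio was lower at the later days, with overlap between days 0 and 2 in clone 66 and between days 2 and 6 in clone 48, and in clone 66 it stayed above 1 in every library. The values of this ratio are a description with no test of their own, and the head of the finished enzyme holds both subunits in equal number. Whether the ratio lies above 1 depends on the annotated exon lengths (3135 bases for Atp5a1 and 4237 for Atp5b), whereas the comparison between clones does not. In CPM without length, Atp5a1 lay below Atp5b in every clone 66 library of day 6 and above it in every one of day 0.

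**Figure D5:**
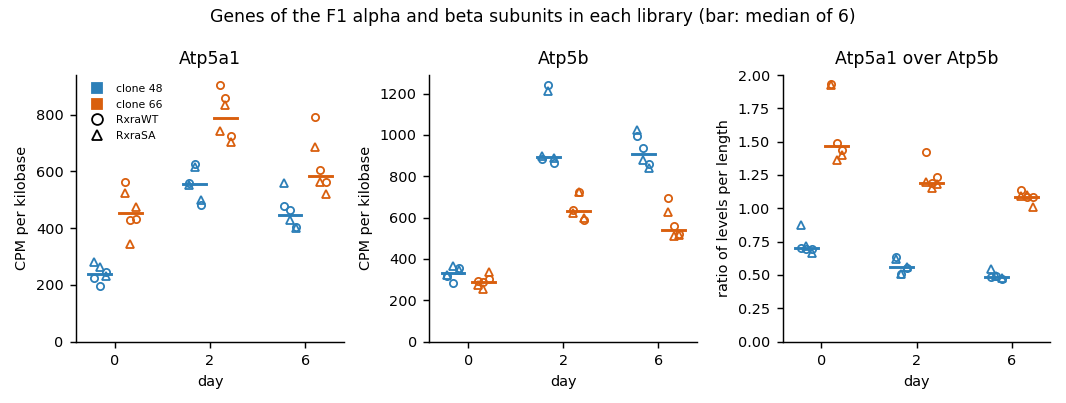
Atp5a1 and Atp5b in CPM per kilobase of exon, and their ratio, for every library by day and clone. Ratios of clone 66 lie between 1.01 and 1.93 and those of clone 48 between 0.471 and 0.872, with no overlap on any day.

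Of the other members called at day 0, Sdhc was higher in clone 66 by 0.36 ± 0.10 and Atp5g2 by 0.31 ± 0.09 (adjusted p = 0.0066 and 0.014). Atp5s had 14.2–17.5 CPM (median 14.5) in clone 48 and 7.71–13.4 (9.87) in clone 66, and was lower by 0.58 ± 0.13 (adjusted p = 0.0016) without overlap. At day 2 Cox5a was lower by 0.34 ± 0.13 (adjusted p = 0.048), a call kept in 15 of 36 fits with a library left out. At day 6 Cox7b was lower by 0.71 ± 0.22 and Atp5mpl by 0.69 ± 0.17 (adjusted p = 0.015 and 0.0023). Atp5mpl, a small proteolipid of the synthase, had 122–207 CPM (171) in clone 48 and 81.0–132 (91.6) in clone 66 on that day, with overlap. At day 6 the members together took 1.56–2.28% of counts (median 1.93%) in clone 48 and 1.34–2.02% (1.46%) in clone 66. Genes of the mitochondrial chromosome took 1.96–6.71% (2.36%) in clone 48 and 2.35–9.09% (5.78%) in clone 66. That share counts every gene of the chromosome and is not a measure of its respiratory genes alone. The clones overlapped in both shares. Of the 3 brown adipocyte markers tested none passed the test at day 0, 1 was higher in clone 66 (Cidea) and 2 lower at day 2, and 3 were lower at day 6 (median -1.42), where Cidea and Elovl3 had at most 1.66 CPM. Of 4 pre-adipocyte markers 3 were lower at day 0, 1 was higher (Pdgfrb) and 2 lower at day 2, and 1 was higher (Pdgfrb) and 3 lower at day 6. Of 5 adipocyte markers 2, 1 and 0 were lower on the 3 days and none higher. The part of these markers in the clone differences was not tested.

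Cox6a2 rose earlier in clone 48 than in clone 66. At day 2 its libraries did not overlap between clones (1.21–2.69 against 0.379–0.654 CPM), and clone 66 was lower by 2.00 ± 0.26 on the log2 scale (adjusted p = 5.1e-07), whereas at days 0 and 6 they overlapped and differed by -0.56 ± 0.36 and -0.13 ± 0.19 (adjusted p = 0.30 and 0.67). From day 0 to day 2 it rose by 2.47 in clone 48 and 1.02 in clone 66, and from day 2 to day 6 by 1.90 and 3.78. The second difference passed the test of clone by time (1.88 ± 0.32, adjusted p = 0.00025) and did so with each library left out in turn. It was the only member of 45 called for days 2 to 6, where 6.18% of all genes were. For days 0 to 2 none of 45 was called against 6.84% of all genes, with 7 of 45 at an unadjusted p under 0.05, none called by DESeq2 and Cox6a2 at -1.45 ± 0.46 (adjusted p = 0.052), and with the replicate block 4 were: Sdhb (-0.40), Sdhaf3 (0.37), Cox6a2 (-1.44) and Atp5a1 (-0.42). For days 0 to 6 none was called against 3.85% of all genes, with 8 of 45 at an unadjusted p under 0.05 and 1 called by DESeq2, and with the block 3 were: Sdhb (-0.46), Atp5b (-0.51) and Atp5a1 (-0.50).

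In each clone alone most members were higher at day 6 than at day 0. In clone 48, 39 of 45 rose and none fell, with a median of 0.95, and in clone 66, 36 rose and 1 fell, with a median of 0.77, while 27.8% of all genes rose in either. The member that fell was Atp5g2 in clone 66, by 0.21 (adjusted p = 0.0497). The log2 fold change was larger in clone 66 than in clone 48 for 6 of the 45 members. The median difference was -0.28 (all genes -0.02), and a shift of the members as a set was not tested.

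Other genes of the same machinery gave the following counts. Of 37 nuclear complex I genes (Ndufa, Ndufb, Ndufc, Ndufs and Ndufv), which pass electrons from NADH, 36 rose to day 2 and none fell (median 0.89), and at day 6 34 were above day 0 and 1 below (median 0.79). Of 36 assembly factors for complexes II to V, among them the 4 Sdhaf genes, 34 were tested: 29 rose to day 2 and 1 fell (Cox20), with a median of 0.83, 2 rose and 19 fell from day 2 to day 6, and 26 were higher and 1 lower (Coa4) at day 6 than at day 0 (median 0.46). Of 6 mitochondrially encoded genes of complexes III to V, 2 had enough counts to be tested, and 3 had no count in any library of day 0. The cause of the missing counts was not tested, and they are not read as low expression. Of the 2 tested, mt-Co1 rose by 0.51 to day 2 and stood 0.76 above day 0 at day 6, and mt-Cytb by 0.80 and 0.57. Cyc1, the cytochrome c1 of complex III, rose by 2.06 and stood 1.87 above day 0 at day 6, and Cycs, cytochrome c itself, by 3.21 and 2.03. Atpif1, the inhibitor of the ATP synthase, fell by 1.00 and was 0.81 below day 0 at day 6, and Ndufa4, counted above with complex I and now assigned to complex IV, rose by 0.80 and was 0.45 below day 0 at day 6.

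Of 15 regulators of mitochondrial biogenesis 13 were tested, of which 9 rose and 1 fell to day 2, 3 rose and 6 fell from day 2 to day 6, and 9 were higher and none lower at day 6 than at day 0. The estrogen-related receptor gene Esrra rose by 1.32 to day 2 and stood 1.28 above day 0 at day 6, and the coactivator gene Ppargc1a by 0.62 and 0.63. Tfam, which packages and transcribes mitochondrial DNA, rose by 0.73 and stood 0.42 above day 0. Nrf1 was 0.05 from day 0 at day 2 (adjusted p = 0.61) and 0.31 above it at day 6, and Gabpa was -0.11 and 0.09 from day 0 (adjusted p = 0.23 and 0.34). In clone 66 Esrra was lower than in clone 48 by 0.69 at day 2 and 0.51 at day 6, and Ppargc1a by 0.56 and 0.59.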

How the data were processed

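RNA sequencing libraries, 36 in number, were analysed. The authors aligned reads with STAR 2.7.0d to GRCm38 and deposited raw counts per GENCODE M21 gene from featureCounts 1.6.2, without normalization. The kit marked strand, but counting did not use it and left out pairs that fit several genes, so 8 members with over 10% of their exons under another gene are uncertain. Groups came from the labels. Counts were filtered with filterByExpr (16723 genes left), scaled by TMM and tested with the quasi-likelihood test of edgeR 4.0.16 in its earlier form, fitting each genotype at each day plus a clone term, as in the study's methods. Clone contrasts had a coefficient for each clone, genotype and day. Adjusted p-values (Benjamini-Hochberg, all tested genes) under 0.05 were called. Simulated counts were run through edgeR and DESeq2 for day 6 against day 0 and for genotype and clone at day 0. Clone by time from day 0 to day 6 was simulated as well. Other contrasts, scalings, filters and the replicate block were not simulated. CPM uses the TMM-adjusted library size, and levels per length divide it by exon length in kilobases. Floors of 3 counts cover counting error only, whereas SE values and intervals of 2 SE also include the estimated spread between libraries. Depth limits the low members most.

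Same-numbered libraries of both genotypes deviated together, with correlations of 0.179 to 0.930 (mean 0.71) over 9362 genes in 18 pairs, so the number was used as a block in an alternative fit. No pair of replicates was a duplicate (chi-square per degree of freedom 12.2 to 191.8). The members and gene lists were chosen with earlier results of these data known. Members were described in full if they had the largest or smallest day 6 change of a complex, the largest change of a step, were isoforms of 1 subunit or complex II assembly factors, had the smallest p for genotype, or were called between clones, with up to 3 per day and direction. DESeq2 1.42.0, other scalings and filters and each library left out in turn were alternatives. R 4.3.3, limma 3.58.1, python 3.11.15, pandas 2.3.3, numpy 2.4.6 and matplotlib 3.10.9 were used.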

Additional observations from a re-analysis of the deposited data

Results flagged for a closer look

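The change of Cox6a2 from day 2 to day 6 differed between the clones. It was 3.78 on the log2 scale in clone 66 and 1.90 in clone 48, a difference of 1.88 ± 0.32 (adjusted p = 0.00025 in edgeR's test of clone by time over all genes), with 12 libraries of each clone on these days. Every clone 66 library of day 2 (0.379–0.654 CPM) lay below every clone 48 library (1.21–2.69 CPM), and the clones overlapped at day 6. Clone and sequencing pool cannot be told apart.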

How the results depend on the processing

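Over the 36 fits with 1 library left out each, 844 of 864 counts and medians kept their direction and stayed within 1.5 times of the value reported (or within 1 SD for medians), as did 189 of 201 under the other settings. With library size alone 3 members were lower at day 2 and 3 at day 6 than at day 0, the members' medians were 0.729 and 0.672, Atp5g2 at day 2 against day 0 turned to -0.18, and 1 member was called for clone by time from day 0 to day 2. Such scaling lowered the median of all genes as well. Keeping genes with 1 CPM in 6 libraries gave 2 members higher in clone 66 at day 2 and 1 called for clone by time from day 0 to day 2, and no filter gave 2 lower in clone 66 at day 2. DESeq2 called 1 member for clone by time from day 0 to day 6. With the replicate block 10 members rose from day 2 to day 6, and 4 and 3 were called for clone by time from day 0 to day 2 and to day 6. Apart from these calls, 3 more falls from day 2 to day 6 and Atp5g1 at day 6 against day 0, it changed no call of a member. Clone differences on a day could not be fitted with this block, since each number is nested in a clone. With single libraries left out, members higher in clone 66 at day 2 numbered 1 to 2, lower at day 2 2 to 6 and lower at day 6 4 to 15, and those called for clone by time 0 to 1 from day 0 to day 2 and 0 to 1 from day 0 to day 6. The cause of these shifts was not tested. Of single-gene values 2521 of 2592 kept direction and call with a library left out (40 lost and 31 gained the call), as did 622 of 648 otherwise. Counting error limits Cox6a2 at day 0, with 2 to 11 counts per library.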
